A study of Mus musculus with 12 samples.

Results

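Fc receptors are the surface molecules through which immune cells read antibodies. Of the 770 genes on the panel, 7 that encode such receptors or their signalling chain are treated here. They were taken by symbol as a family, and earlier results of these data were known when they were chosen. Fcgr1, Fcgr3 and Fcgr4 are the activating receptors for IgG, Fcer1g is the common gamma chain through which they signal, Fcgr2b is the inhibitory receptor for IgG, and Fcer1a and Fcer2a are receptors for IgE. They were compared between tumors injected with PBS, with an emulsion, or with the emulsion carrying a TLR4 agonist, and the activating receptors were set against the inhibitory one within each tumor.

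As background, an activating receptor that is cross-linked by IgG on a target has the tyrosine motif of its gamma chain phosphorylated by Src family kinases, and this recruits the kinase Syk. The inhibitory receptor carries a tyrosine motif of the opposite kind, which recruits the phosphatase SHIP-1 and stops that signal. Macrophages, monocytes and neutrophils can carry both kinds, NK cells carry mainly Fcgr3, and B cells carry Fcgr2b as their only classical IgG receptor, so the balance of both kinds is of interest wherever a tumor is treated with, or makes, antibody.

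The tumors were grown from A20, a mouse B-cell lymphoma line, in female Balb/c mice that received 5000000 cells under the skin, and treatment began about 7 days later. All mice had 3 intratumoral injections, given every other day, and tumors were taken 2 h after the last. The 4 GLA-SE mice received 10 ug of glucopyranosyl lipid A (GLA), a synthetic TLR4 agonist, in 50 ul of 2% stable emulsion (SE); the 4 SE mice received the emulsion without GLA, and the 4 PBS mice received saline. Each tumor is 1 mouse, and whole tumor RNA was counted with barcoded probes on the nCounter mouse PanCancer Immune Profiling Panel. Among B-cell markers, the surface antigen Ms4a1 measured 5365 to 10842 and the antigen receptor component Cd79b 4405 to 7351 normalized counts in the 12 tumors, and all 8 markers were above 0 in every tumor.

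Total counts ran from 810260 to 1612415 per tumor. A normalized count is the deposited count after scaling to the geometric mean of 17 stable reference genes, and the factor was between 0.692 and 1.29 in 11 tumors and 2.11 in SE replicate 4, whose reference counts were the lowest. Each probe binds with its own strength, so counts are compared between tumors and not between genes. A gene is said to have risen or fallen where the adjusted p of edgeR's quasi-likelihood test was under 0.05 over the 750 genes tested. No level of any member was at 0, and all 7 members reached 20 deposited counts in 4 or more of the tumors of each comparison.

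The 250 bases before the start of 4 IgG receptor genes are shown because these genes differ in how far they moved. They come from RefSeq on build GRCm38.p6, are read 5′ to 3′ on the strand of the gene, and are upstream promoter sequence of Fcgr1 (chr3:96293970-96294219, minus strand), Fcgr4 (chr1:171018676-171018925, plus strand), Fcgr3 at the first of 2 annotated starts (chr1:171059404-171059653, minus strand) and Fcgr2b (chr1:170976072-170976321, minus strand). Capitals mark a gamma-activated site (TTC and GAA spaced by 3 bases), a pair of GAAA spaced by 2 bases as in interferon-stimulated response elements, and GAGGAAG or its reverse complement CTTCCTC, a form of the PU.1 motif.
Fcgr1: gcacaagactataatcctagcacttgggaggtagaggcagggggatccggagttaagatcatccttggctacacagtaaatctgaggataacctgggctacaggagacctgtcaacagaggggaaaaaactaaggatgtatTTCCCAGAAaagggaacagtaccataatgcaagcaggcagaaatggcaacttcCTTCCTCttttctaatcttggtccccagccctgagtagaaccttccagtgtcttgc
Fcgr4: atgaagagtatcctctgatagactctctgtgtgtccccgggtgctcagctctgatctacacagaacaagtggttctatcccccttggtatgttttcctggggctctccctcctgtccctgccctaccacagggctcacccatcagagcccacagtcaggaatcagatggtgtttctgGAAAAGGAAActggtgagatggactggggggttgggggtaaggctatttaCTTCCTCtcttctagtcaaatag
Fcgr3: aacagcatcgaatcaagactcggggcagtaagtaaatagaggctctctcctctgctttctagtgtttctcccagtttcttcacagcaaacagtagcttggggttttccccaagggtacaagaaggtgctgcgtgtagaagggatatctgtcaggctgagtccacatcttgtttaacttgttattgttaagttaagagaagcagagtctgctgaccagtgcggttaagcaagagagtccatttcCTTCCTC
Fcgr2b: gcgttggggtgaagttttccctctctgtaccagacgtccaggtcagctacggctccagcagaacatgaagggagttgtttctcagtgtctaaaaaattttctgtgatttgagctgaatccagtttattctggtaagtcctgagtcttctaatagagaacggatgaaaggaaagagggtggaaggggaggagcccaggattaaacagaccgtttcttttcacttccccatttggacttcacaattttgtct

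The Fcgr1 window held the gamma-activated site at bases 109 to 101 before the start, a motif that 7.02% of 32851 mouse promoter windows of the same length hold on either strand. The Fcgr4 window held the GAAA pair at bases 73 to 64, found in 2.98% of promoters. GAGGAAG lay at bases 56 to 50 in Fcgr1, 7 to 1 in Fcgr3 and 23 to 17 in Fcgr4, and 10.6% of promoters hold it. Its shorter core AGGAAG, found in 29.5% of promoters and not marked by capitals elsewhere, was in 5 members, these 3 and also Fcer1g and Fcer2a. None of the marked matches overlapped another marked match. Of the other motifs searched, the STAT6 form of TTC and GAA spaced by 4 bases (5.85% of promoters) was found at 1 of the starts of Fcer2a, the C/EBP form of TTGC and AA spaced by 2 bases (9.56%) in Fcgr3 and Fcer1a, and the NF-kB form of GGG and CC spaced by 5 bases (45.8%), whose matches can overlap each other, in the 6 members other than Fcgr1. The octamer ATTTGCAT (1.6%) was found in 0 members. The motifs were chosen with the values known, and a match is a string of letters that was not tested as a binding site.

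Transcripts of the 3 activating receptors were higher in every GLA-SE tumor than in every PBS tumor. Fcgr1, the high-affinity IgG receptor of monocytes and macrophages, measured 137, 86.1, 84.6 and 133 normalized counts in PBS replicates 1 to 4. It measured 721, 764, 493 and 725 in GLA-SE replicates 1 to 4. It measured 194, 84, 619 and 684 in SE replicates 1 to 4. The SE tumors were thus spread from the PBS level to the GLA-SE level, with replicate 2 just below the lowest PBS tumor and replicates 3 and 4 within the GLA-SE range. Before scaling, SE replicate 4 had 325 counts, against 439 to 723 in GLA-SE tumors.

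Fcgr4, an activating receptor of myeloid cells that binds IgG2a and IgG2b, measured 329, 185, 319 and 259 normalized counts in the PBS tumors. It measured 1465, 1789, 1354 and 1408 in the GLA-SE tumors. It measured 598, 199, 1015 and 933 in the SE tumors. All 4 GLA-SE tumors lay above all SE tumors, and SE replicate 2 lay within the PBS range.

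Fcgr3, the low-affinity activating receptor shared by NK cells and myeloid cells, measured 343, 261, 275 and 345 normalized counts in the PBS tumors. It measured 978, 1222, 1067 and 984 in the GLA-SE tumors. It measured 371, 265, 1005 and 1409 in the SE tumors. Here SE replicate 4 was the highest of the 12 tumors, SE replicate 3 fell among the GLA-SE tumors and SE replicate 2 among the PBS tumors. The rank of SE replicate 4 depends on its scale factor of 2.11. Its deposited count was 669, against 936 to 1138 in GLA-SE tumors.

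Fcer1g, the gamma chain that the activating IgG receptors and the high-affinity IgE receptor need for signalling, resembled Fcgr3. It measured 651, 547, 489 and 620.2 normalized counts in the PBS tumors. It measured 1545, 1893, 2482 and 1781 in the GLA-SE tumors. It measured 599, 381, 1846 and 2369 in the SE tumors, so that SE replicates 3 and 4 were at the GLA-SE level while replicate 2 was the lowest tumor of all. Before scaling, SE replicate 4 had 1125 counts, against 1550 to 2208 in GLA-SE tumors.

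Fcgr2b, the inhibitory receptor, measured 2534, 1993, 2261 and 2982 normalized counts in the PBS tumors. It measured 5639, 7626, 8628 and 6561 in the GLA-SE tumors. It measured 3428, 2605, 3474 and 5224 in the SE tumors. All 4 GLA-SE tumors lay above all SE and all PBS tumors, and no SE tumor reached the GLA-SE range, whereas SE replicates 3 and 4 did so for Fcgr1 and Fcgr3. Mouse Fcgr2b and Fcgr3 are closely similar in their extracellular parts, and the probe sequences were not given in the sources used here, so whether a probe reads both was not tested.

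The IgE receptors were measured at low counts, where counting error is large. Fcer1a, the IgE-binding chain of the high-affinity receptor of mast cells and basophils, measured 32.2, 21.3, 14.4 and 23 normalized counts in the PBS tumors. It measured 26.9, 46.2, 32.6 and 32.6 in the GLA-SE tumors. It measured 15.2, 23.7, 49.1 and 118 in the SE tumors, and the groups overlapped throughout. The deposited counts behind these values were 19 to 56, and the 56 counts of SE replicate 4 have an exact 95% Poisson interval of 42.3 to 72.7, which covers counting error only.

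Fcer2a, the low-affinity IgE receptor CD23 of B cells, measured 35.1, 44.5, 37.8 and 37.8 normalized counts in the PBS tumors. It measured 77.7, 56.9, 145 and 62 in the GLA-SE tumors, all above the PBS tumors. It measured 36, 43.1, 64.6 and 417 in the SE tumors, where replicate 4 was far above the rest. That tumor also had the largest scale factor, and its deposited count was 198 against 36 to 129 in the other tumors.

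**Figure D1:**
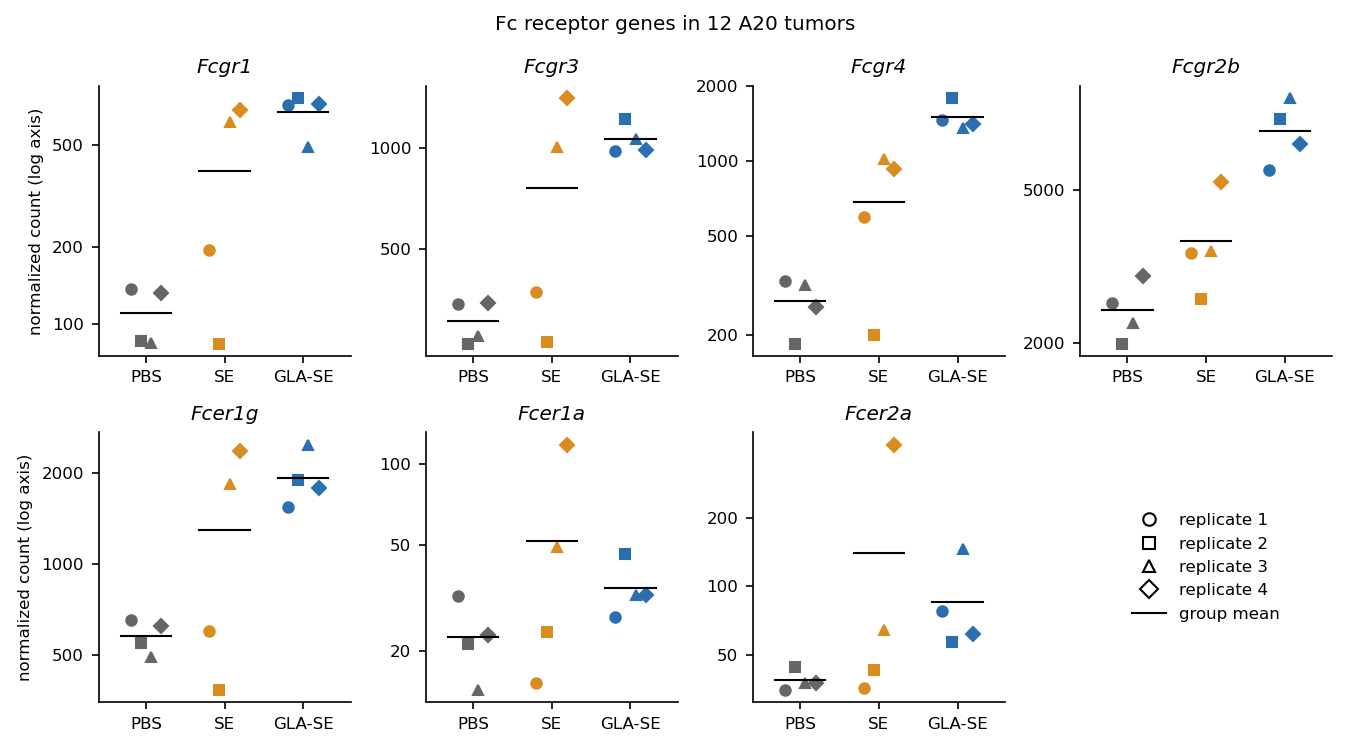
Normalized counts (log axis) of the 7 Fc receptor genes in each of the 12 tumors, with 1 point per tumor, marker shapes for replicate numbers and a line at each group mean (n = 4). GLA-SE tumors lie above PBS tumors for all genes but Fcer1a, and SE replicates 3 and 4 lie above SE replicates 1 and 2 for the activating receptors and Fcer1g.

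The comparison of GLA-SE with PBS addresses what TLR4 stimulation in its emulsion did to receptor transcripts. All 3 activating receptors, the gamma chain and the inhibitory receptor rose, and the activating Fcgr1 and Fcgr4 had the largest fold changes of the family. Fcgr1 went from 110.3 ± 28.9 normalized counts (SD, n = 4) to 676 ± 123, Fcgr4 from 273 ± 66.5 to 1504 ± 195, and Fcgr2b from 2443 ± 422 to 7113 ± 1296. The emulsion is part of both the GLA-SE and the SE treatment, so this comparison alone does not separate GLA from its carrier.

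On the log2 scale Fcgr1 rose by 2.61 (standard error 0.23, edgeR adjusted p = 0.000131) and Fcgr4 by 2.46 (standard error 0.20, adjusted p = 9.96e-05). Fcgr3 rose by 1.80 (standard error 0.14), Fcer1g by 1.74 (standard error 0.17) and Fcgr2b by 1.54 (standard error 0.17), with adjusted p values from the edgeR test between 9.96e-05 and 0.000219. Fcer2a rose by 1.14 (standard error 0.32, edgeR adjusted p = 0.0121). Fcer1a did not pass, with a log2 difference of 0.61 (95% interval -0.02 to 1.25, edgeR adjusted p = 0.0788). An exact permutation test, with 70 ways to divide 8 tumors into groups of 4, gave a two-sided p of 0.0286, the smallest it can give, for each of the 6 genes that rose and 0.0571 for Fcer1a.

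Thus 6 of the 7 members rose, beside 68.3% of all 750 genes tested that rose in this comparison, and 6 of 7 had all GLA-SE tumors above all PBS tumors, beside 63.6% of the panel. Since most of the panel rose on the reference-gene scale, neither count is particular to Fc receptors. The median log2 fold change was 1.74 over the members and 0.89 over the 750 genes. Ordered from the largest rise in the panel, Fcgr1 was at place 32, Fcgr4 at 38, Fcgr3 at 89, Fcer1g at 102, Fcgr2b at 149, Fcer2a at 286 and Fcer1a at 475.

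Because the whole panel shifted, the members were also scaled to the median count of each tumor's panel genes, which moved the median log2 fold change of all genes from 0.89 to -0.40 and the genes called from 512 higher and 3 lower to 61 higher and 307 lower. On that scale Fcgr1 was still higher by 1.40 and Fcgr4 by 1.21 (edgeR adjusted p = 0.00129 and 0.00117), Fcgr3 by 0.53 and Fcer1g by 0.44 (edgeR adjusted p = 0.0143 and 0.0113). Fcgr2b no longer passed (0.25, edgeR adjusted p = 0.0845), and the differences of Fcer2a and Fcer1a turned negative at -0.21 and -0.64 without passing. The activating receptors and the gamma chain were therefore called on both scales, while the calls on Fcgr2b and Fcer2a depended on the scale.

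**Figure D2:**
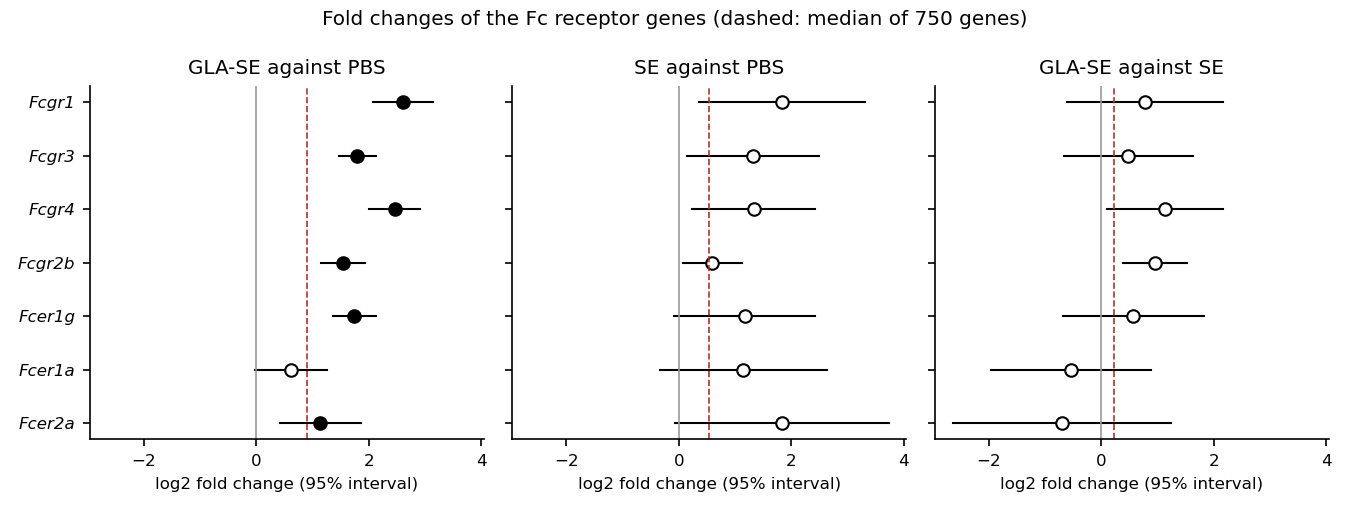
Log2 fold change of each Fc receptor gene (x axis) in the 3 comparisons, on reference-scaled counts, with 95% intervals from the edgeR fit and filled points where the adjusted p was under 0.05. The intervals of GLA-SE against PBS lie above 0 for all genes but Fcer1a, and those of the comparisons with SE are wide.

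**Figure D3:**
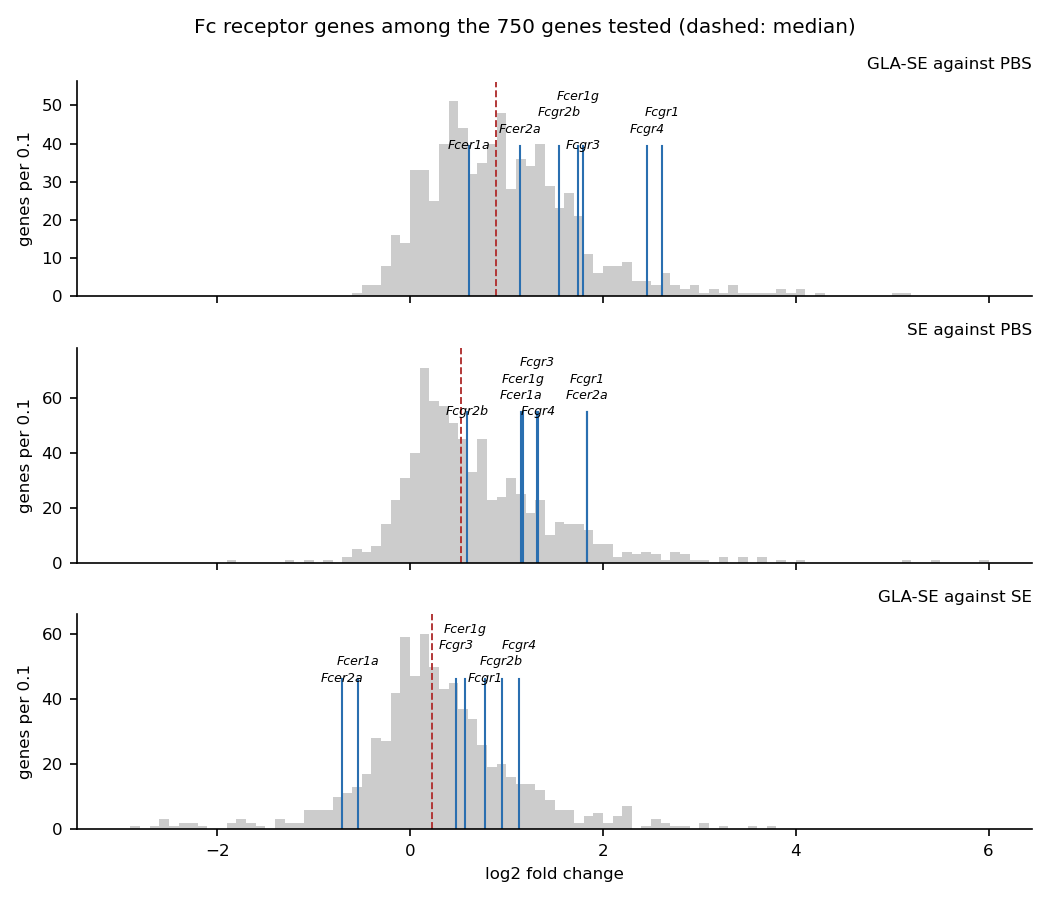
Distribution of log2 fold changes (x axis, bins of 0.1) over the 750 genes tested in each comparison, with a blue line at each Fc receptor gene and a dashed line at the median of all genes. In GLA-SE against PBS the median is 0.89, and 5 Fc receptor genes lie between 1.54 and 2.61.

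The emulsion alone, compared with the same PBS tumors, gave receptor levels that differed widely from tumor to tumor. No member passed the test, and 0.0% of the 750 genes did with edgeR, although 140 genes (18.7%) and 4 members, namely Fcgr1, Fcgr2b, Fcgr3 and Fcgr4, had an unadjusted p under 0.05. Fcgr1 averaged 395 ± 300.4 normalized counts (SD, n = 4) in SE tumors, Fcgr4 averaged 686 ± 372 and Fcgr2b averaged 3683 ± 1102. The log2 differences from PBS were 1.84 for Fcgr1 (95% interval 0.37 to 3.31), 1.33 for Fcgr4 (0.24 to 2.42), 1.31 for Fcgr3 (0.14 to 2.49), 1.17 for Fcer1g (-0.08 to 2.42) and 0.59 for Fcgr2b (0.07 to 1.12).

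The log2 difference from PBS was 1.84 for Fcer2a and 1.15 for Fcer1a over 4 SE tumors, and 0.30 and 0.35 without SE replicate 4. Without that tumor Fcgr3 went from 1.31 to 0.84, Fcer1g from 1.17 to 0.71 and Fcgr2b from 0.59 to 0.38. Fcgr1 went from 1.84 to 1.44 and Fcgr4 from 1.33 to 1.15. The edgeR adjusted p was 0.243 for all members except Fcer1a, for which it was 0.277. No member had all SE tumors above all PBS tumors, an arrangement seen in 8.67% of the panel. With DESeq2 12 of the 750 genes passed, 0 of them members, and with limma 0 genes passed.

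GLA-SE was then compared with SE, the comparison in which GLA is the only component that differs. No member passed with edgeR, beside 2.13% of the panel (16 of 750 genes, all higher), and 0 members passed with limma or DESeq2. The log2 difference was 1.13 for Fcgr4 (95% interval 0.11 to 2.16, edgeR adjusted p = 0.239) and 0.95 for Fcgr2b (0.38 to 1.52, edgeR adjusted p = 0.0955), and these were the 2 members with an unadjusted p under 0.05, as 17.7% of panel genes had. They were also the 2 members for which all GLA-SE tumors lay above all SE tumors, as 14.4% of panel genes did, and the exact permutation test gave both a two-sided p of 0.0286. Fcgr2b passed without SE replicate 4 (1.17, edgeR adjusted p = 0.0180), where 102 of 750 genes did. It also passed in a fit of all 12 tumors (0.95, edgeR adjusted p = 0.0238), where 70 genes did. Fcgr2b did not pass with panel-median scaling (0.13, edgeR adjusted p = 0.777) or TMM scaling (0.56, edgeR adjusted p = 0.216). With DESeq2 its difference was 0.47 (DESeq2 adjusted p = 0.188).

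The differences of Fcgr1 (0.78, 95% interval -0.61 to 2.16), Fcer1g (0.57, -0.69 to 1.83) and Fcgr3 (0.48, -0.67 to 1.63) had intervals that hold both 0 and a large difference. They ran from 0.44, 0.26 and 0.20 without SE replicate 2 to 1.18, 1.03 and 0.96 without SE replicate 4. Those of Fcer2a (-0.70) and Fcer1a (-0.54) were negative over 4 SE tumors and positive without SE replicate 4, at 0.84 and 0.26. By group mean the 4 IgG receptors and the gamma chain stood in the order PBS, SE, GLA-SE, and the IgE receptors in the order PBS, GLA-SE, SE. No member passed the adjusted edgeR test between SE and either other group, although all GLA-SE tumors lay above all SE tumors for Fcgr4 and Fcgr2b.

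Activating and inhibitory receptors were set against each other within a tumor as the log2 ratio of their counts, which no scaling can change. The size of a ratio depends on the probes, and only its difference between tumors is read. Fcgr1 over Fcgr2b was -4.21, -4.53, -4.74 and -4.49 in PBS replicates 1 to 4. It was -2.97, -3.32, -4.13 and -3.18 in GLA-SE replicates 1 to 4. It was -4.14, -4.95, -2.49 and -2.93 in SE replicates 1 to 4. All GLA-SE tumors lay above all PBS tumors, with GLA-SE replicate 3 close to the highest PBS tumor, and SE replicates 3 and 4 were the highest of all.

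Fcgr4 over Fcgr2b was -2.94, -3.43, -2.83 and -3.53 in the PBS tumors. It was -1.94, -2.09, -2.67 and -2.22 in the GLA-SE tumors. It was -2.52, -3.71, -1.77 and -2.49 in the SE tumors. Again the GLA-SE and PBS tumors did not overlap, and the SE tumors spanned both.

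Fcgr3 over Fcgr2b was -2.89, -2.93, -3.04 and -3.11 in the PBS tumors. It was -2.53, -2.64, -3.02 and -2.74 in the GLA-SE tumors. It was -3.21, -3.30, -1.79 and -1.89 in the SE tumors. GLA-SE replicate 3 lay among the PBS tumors, and the SE tumors fell on either side of all others, replicates 1 and 2 below and replicates 3 and 4 above.

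From PBS to GLA-SE the mean ratio of Fcgr1 to Fcgr2b was higher by 1.09 on the log2 scale (standard error 0.28, 2.13-fold) and that of Fcgr4 to Fcgr2b by 0.95 (standard error 0.23, 1.93-fold), each with an exact permutation p of 0.0286. Benjamini-Hochberg adjustment over the 9 ratio comparisons gave both p = 0.129 by the exact test, but with 4 tumors a group 6 of the 9 would have to be at the smallest possible p for any to pass, so the adjusted values say little about the ratios. The ratio of Fcgr3 to Fcgr2b differed by 0.26 (standard error 0.12, exact permutation p = 0.0857, adjusted p = 0.257). From PBS to SE the differences were 0.86 for Fcgr1, 0.56 for Fcgr4 and 0.45 for Fcgr3, with adjusted exact p values of 0.463, 0.45 and 0.625.

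Between GLA-SE and SE the ratios differed by 0.23 for Fcgr1, 0.39 for Fcgr4 and -0.18 for Fcgr3, with adjusted exact p values of 0.771, 0.625 and 0.739. As a description, the mean of the 3 activating ratios was -3.56 ± 0.16 in PBS, -2.93 ± 0.88 in SE and -2.79 ± 0.34 in GLA-SE (SD, n = 4). The gamma chain kept a nearly steady ratio to Fcgr2b in the GLA-SE tumors, at -1.89 ± 0.089, against -2.07 ± 0.19 in PBS and -1.84 ± 0.94 in SE. On the reference-gene scale the activating and inhibitory genes both rose under GLA-SE. Within tumors Fcgr1 and Fcgr4 were higher relative to Fcgr2b in every GLA-SE tumor than in every PBS tumor. Fcgr2b was at place 149 in the panel, ordered from the largest rise from PBS to GLA-SE. Many genes outside the family thus also rose more than Fcgr2b, and a higher ratio to it is not particular to activating receptors. The share of panel genes whose ratio to Fcgr2b separates these groups was not computed.

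**Figure D4:**
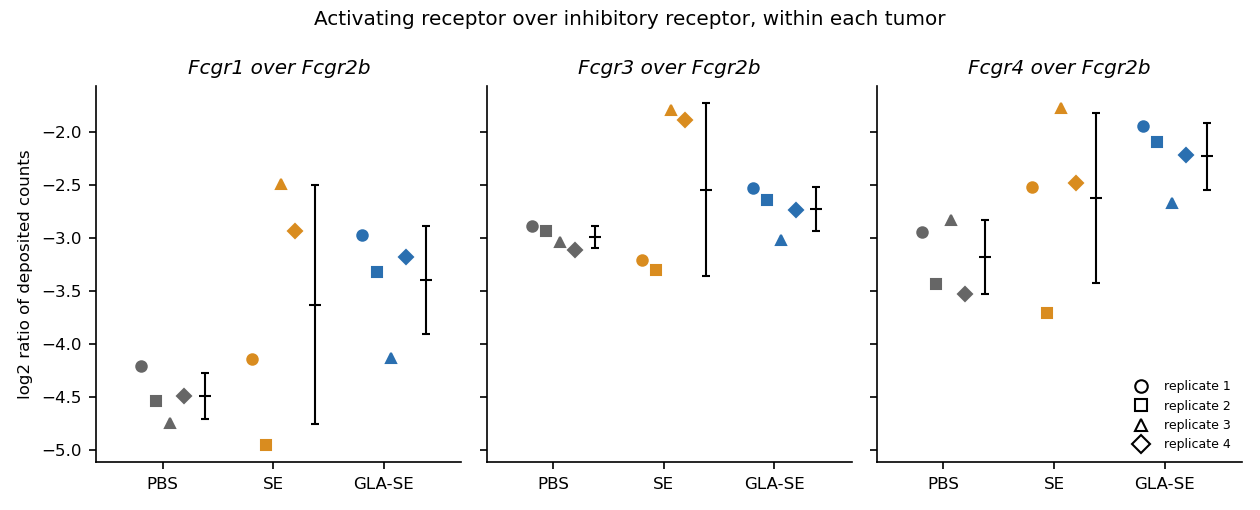
Log2 ratio of each activating receptor to Fcgr2b in each tumor (y axis), by group, with a bar at each mean and its SD (n = 4). For Fcgr1 and Fcgr4 the GLA-SE and PBS tumors do not overlap, and SE replicates 3 and 4 lie above SE replicates 1 and 2.

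Genes that carry the signal of these receptors were taken as a list of 10, from the Src family kinases Lyn and Fyn through Syk to the phosphatase gene Inpp5d. Under GLA-SE 8 of the 10 rose against PBS, beside 68.3% of the panel, 0 fell and 2 did not pass. The median log2 fold change was 0.58 against 0.89 for the panel. Syk rose by 0.97 and Lyn by 0.86 (edgeR adjusted p = 0.00138 and 0.000737). Lyn ran from 909 to 998 normalized counts in PBS tumors and from 1507 to 2141 in GLA-SE tumors. None of the 10 passed in either comparison with SE. In each, 2 had an unadjusted p under 0.05, beside 18.7% of the panel for SE against PBS and 17.7% for GLA-SE against SE.

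Cytokines, receptors and factors known to set IgG receptor levels were a further list of 10. Under GLA-SE 9 rose against PBS, beside 68.3% of the panel, 0 fell and 1 did not pass. The median log2 fold change was 1.24 against 0.89 for the panel. Ifng, the interferon that induces Fcgr1 in macrophages, measured 28.3, 12.6, 23.4 and 27.9 normalized counts in PBS replicates 1 to 4. It measured 39.9, 58, 80.9 and 54.7 in GLA-SE replicates 1 to 4. It measured 27, 21.5, 31 and 23.2 in SE replicates 1 to 4. The GLA-SE tumors lay above all others. SE replicates 3 and 4, with their high activating receptors, measured Ifng near the other SE tumors, but on few counts. The deposited counts of Ifng were 24 in SE replicate 3 and 11 in SE replicate 4. The exact Poisson interval for SE replicate 4, made as for Fcer1a, was 5.49 to 19.7 deposited counts. Its Ifng level is therefore uncertain, and the part of Ifng in the receptor levels was not tested.

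Ifng rose by 1.33 (standard error 0.31, edgeR adjusted p = 0.00595) from PBS to GLA-SE and differed by 1.18 between GLA-SE and SE (edgeR adjusted p = 0.1001). C5ar1, the receptor for the complement fragment C5a, rose by 2.54 and Il10 by 1.56 from PBS (edgeR adjusted p = 0.000737 and 0.0123). With edgeR the list had 0 genes called between SE and PBS, beside 0.0% of the panel, and 1 had an unadjusted p under 0.05, beside 18.7%. Between GLA-SE and SE 1 was called higher, beside 2.13% of the panel, and 3 had an unadjusted p under 0.05, beside 17.7%.

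In RNA from a whole tumor, more transcript of a receptor can come from more cells that carry it or from more transcript per cell, and these cannot be told apart. All 10 monocyte and macrophage markers rose under GLA-SE against PBS, beside 68.3% of the panel. Their median log2 fold change was 1.61, beside 1.74 for the Fc receptor genes and 0.89 for the panel. Their summed normalized counts were 30011 to 38319 in PBS tumors and 86001 to 126907 in GLA-SE tumors. In SE replicates 1 to 4 they were 25147, 32525, 75652 and 112027. The mean log2 value of the 10 markers, in which each counts equally, was 7.76, 7.67, 9.83 and 11.03 in these SE tumors. It was 8.07 to 8.59 in PBS and 9.84 to 10.51 in GLA-SE tumors. SE replicates 3 and 4, the highest SE tumors for the activating receptors and Fcer1g, were thus also the highest for these markers, and the part of these cells in the receptor differences was not tested.

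B-cell markers, which the A20 cells themselves express, did not rise: of 8, 2 fell (Ms4a1 by 0.45 and Cd79b by 0.41 on the log2 scale, edgeR adjusted p = 0.00758 and 0.00597) and 6 did not pass. Their sums were 19067 to 22482 in PBS, 13439.5 to 22110.0 in SE and 15485 to 17911 in GLA-SE tumors, and are carried mostly by Ms4a1 and Cd79b. The mean log2 value of the 8 markers, in which each counts equally, overlapped between PBS (9.79 to 9.97) and GLA-SE tumors (9.70 to 9.98), and the median log2 fold change was -0.05. The part of B cells in the Fcgr2b difference was not tested. In other lists 2 of 4 NK-cell, 3 of 7 neutrophil and 2 of 5 dendritic-cell markers rose under GLA-SE against PBS and 0 fell. These shares, each of few genes, were smaller than the 68.3% of the panel. The NK-cell sums ran from 197 to 531 in PBS, 212 to 680 in SE and 709 to 808 in GLA-SE tumors. The neutrophil sums ran from 227 to 256 in PBS tumors and from 850.2 to 9199.9 in GLA-SE tumors, where a single gene carried most of them. No gene of these lists passed between SE and PBS or between GLA-SE and SE, and 2 neutrophil genes were under 20 deposited counts in every tumor. Whether any of these cells contributed to the receptor levels was not tested.

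Mast-cell and basophil markers were set beside the IgE receptor chain Fcer1a, which did not pass from PBS to GLA-SE. All 4 markers rose under GLA-SE against PBS, beside 68.3% of the panel, with a median log2 fold change of 0.99 against 0.89. Their sums were 121 to 150.05 normalized counts in PBS tumors and 221 to 383 in GLA-SE tumors. In SE replicates 1 to 4 the sums were 98.2, 95.9, 500.0 and 2855, and that of replicate 4 is carried mostly by a single marker. Ms4a2, the beta chain of the same receptor, measured 11.1, 11.8, 20.7 and 61.1 normalized counts in SE replicates 1 to 4, against 8.21 to 13.6 in PBS and 16.8 to 29.2 in GLA-SE tumors. The deposited counts of Ms4a2 were only 10 to 29, the highest in SE replicate 4. SE replicate 4 was therefore the highest tumor for Fcer1a and for this marker sum, of which Ms4a2 is a part. The part of mast cells in its Fcer1a value was not tested. The B-cell marker sum of SE replicate 4, at 13439.5, was the lowest of the 12 tumors, and which cells gave its Fcer2a value was not tested.

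**Figure D5:**
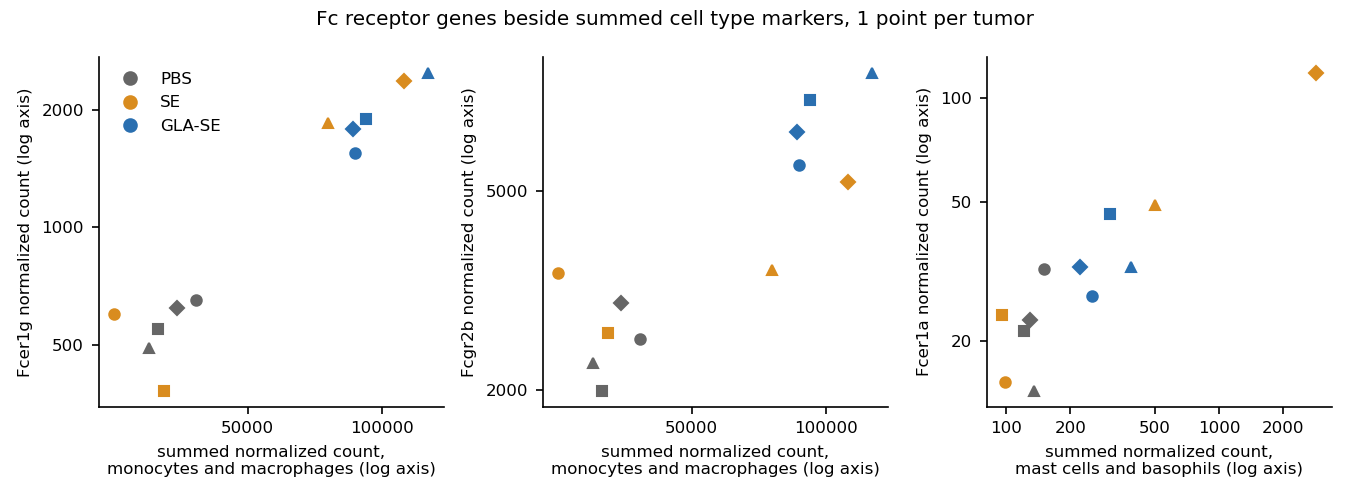
Normalized counts of Fcer1g and Fcgr2b against the summed monocyte and macrophage markers, and of Fcer1a against the summed mast-cell and basophil markers, 1 point per tumor, all axes log. SE replicates 3 and 4 sit beside the GLA-SE tumors for Fcer1g, below them for Fcgr2b, and SE replicate 4 lies apart from all others in the Fcer1a panel.

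The members' profiles over the 12 tumors were compared with each other and with 670 other genes by the root mean square difference of centred log2 values, where a smaller value is a closer match. Among the members the closest pair was Fcgr3 and Fcer1g at 0.18, and the farthest was Fcgr4 and Fcer2a at 1.07. Outside the family Fcer1g lay nearest to Slc11a1 (0.13), Oas2 and Itgam, and Fcgr3 to Ifi44 (0.18), Slc11a1 and Ifi44l. The nearest genes to Fcgr1 were farther away, with Slc11a1 at 0.48 and Spp1 at 0.49, and Fcgr4 lay at 0.37 from Klra2 and 0.41 from Ccr1.

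Fcgr2b had other neighbours than the activating receptors, Pml (0.13), Il2rg (0.16) and Jak3 (0.17). Fcer1a lay nearest to Kdr (0.23), Tnfsf13 and Cspg4, and Fcer2a to Ifi27 (0.28), Kit and Ceacam1, and all 8 of these genes were highest in SE replicate 4. For comparison, the median distance of the 670 genes was between 0.60 for Fcgr2b and 1.00 for Fcgr1. All profiles share the same 12 libraries and their scale factors, and these distances are descriptions.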

How the data were processed

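RNA of 12 A20 tumors was counted on an nCounter immune panel of 770 mouse genes, and the labels gave the groups. The values are whole-number counts in 1 table that the authors deposited. Their methods describe normalization in nSolver, but the totals and reference genes differed between tumors, and the deposited counts were handled as raw. The geNorm procedure kept 17 of 20 reference genes over all 12 tumors, and each tumor was scaled to their geometric mean. The larger set of the most similar pair of sets was used, a choice made after first values were seen. The other 750 genes were tested with edgeR 4.0.16 (quasi-likelihood, R 4.3.3) within the 8 tumors of each comparison, without a filter or covariates, with Benjamini-Hochberg adjustment over the 750 genes and a threshold of 0.05. Ratios of activating receptors to Fcgr2b and single genes had two-sided exact permutation tests (SciPy 1.17.1). Comparisons with PBS share the PBS tumors. Depth and 4 mice per group limit precision, most for genes near 20 counts.

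Alternatives were other reference sets, panel-median and TMM scaling, a filter of 20 counts, a pseudocount of 1 or a floor of 20 counts for ratios, limma 3.58.1 on log2(normalized count + 1), DESeq2 1.42.0, 1 fit of 12 tumors, a replicate block, and leaving out each tumor. Promoter sequences were matched by symbol for 7 of 7 members. The members and lists were chosen with earlier results of these data known. Named genes outside the family were Ifng, Ms4a2, up to 3 genes per list with the largest changes among those called from PBS to GLA-SE, and the 3 nearest profiles of each member; only genes a result turns on are printed, and some are not reported here.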

Additional observations from a re-analysis of the deposited data

Results flagged for a closer look

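In 30 sets of 4 tumors (7 receptor genes and 3 ratios in each of 3 groups), a tumor was looked for whose distance to its nearest neighbour took up most of the range of its group, by Dixon's criterion, which chance meets in about 5% of sets, or 1.5 of 30. It was met in 2 sets. Fcer2a, the low-affinity IgE receptor, measured 417 normalized counts in SE replicate 4, while the other SE tumors lay between 36 and 64.6. Fcgr1, the high-affinity IgG receptor, measured 493 in GLA-SE replicate 3, while the other GLA-SE tumors lay between 721 and 764. GLA-SE replicate 3 had the highest Fcgr2b (8628), Fcer1g (2482) and summed macrophage markers (126907) among the GLA-SE tumors, and the part of its cell makeup in the Fcgr1 value was not tested.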

How the results depend on the processing

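Over all alternatives, 117 of 126 recomputed fold changes from PBS to GLA-SE, 126 of 126 from PBS to SE and 121 of 126 from SE to GLA-SE kept their direction and their side of the threshold. The 6 members called between GLA-SE and PBS were 4 with panel-median scaling, 5 with TMM, DESeq2 or 1 fit of 12 tumors, and 6 to 7 when 1 tumor was left out. Without PBS replicate 1, Fcer1a passed (0.82, edgeR adjusted p = 0.0285). The GLA-SE against PBS difference of Fcer1a turned to -0.64 with panel-median scaling, -0.14 with TMM and -0.21 with DESeq2, and that of Fcer2a to -0.21 with panel-median scaling; TMM called 193 genes higher and 133 lower, and DESeq2 193 and 153. Fcer2a did not pass in 1 fit of 12 tumors (1.14, edgeR adjusted p = 0.216), which called 253 genes against 515.

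Between GLA-SE and SE the count of members called was 1 in the fit of 12 tumors and 0 to 1 when 1 tumor was left out, while the genes called over the panel ranged from 0 with panel-median scaling to 102 without SE replicate 4, against 16. With a tumor left out, Fcer1a ran from -0.86 to 0.26 and Fcer2a from -1.08 to 0.84, both turning positive without SE replicate 4. Likewise the log2 difference between GLA-SE and SE ran from -0.21 to 0.61 for Fcgr1 over Fcgr2b, from -0.44 to 0.07 for Fcgr3 over Fcgr2b and from 0.028 to 0.673 for Fcgr4 over Fcgr2b. The value was -0.21 without SE replicate 2 for Fcgr1, and 0.068 without SE replicate 3 and 0.034 without SE replicate 4 for Fcgr3. The exact permutation test of 4 tumors against 3 cannot go below p = 0.0571. The smaller reference set of 16 genes, added after the data were seen, gave the counts 6, 0 and 0 again. Same-numbered tumors deviated from their group means with correlations of -0.25 to 0.18, so the numbers were not taken as pairs; with the replicate block the members called were 6, 0 and 0, and Fcer2a between GLA-SE and SE turned to 0.12. The causes of these changes were not tested. Counts as low as 19 limit what can be said of Fcer1a.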
